A study of Rattus norvegicus with 4 samples.

Results

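The 10 genes described here encode transporters, channels and markers of astrocytes: the glutamate transporters Slc1a2 and Slc1a3, glutamine synthetase (Glul), the water channel Aqp4, the gap junction proteins Gja1 and Gjb6, the calcium-binding proteins S100b and Sparcl1, the neurotensin receptor Ntsr2 and the fatty acid binding protein Fabp7. They were chosen by name, and their probes were found through the RefSeq accession of each probe. All 10 had a probe, with 15 probes and 42 spots in all, among 8927 genes that could be named on the array. The cells came from Fisher 344 rats, and the series title gives the donor tissue as adult hippocampus and olfactory bulb. Neural stem cells cultured from the hippocampus (HPC NSC) or the olfactory bulb (OB NSC) were set beside neurons derived from each of these cultures (HPC neu and OB Neu). No genetic change or drug is named for any group, and how the neurons were derived is not given in the sources used here. Each group was measured on 1 Agilent array labelled with Cy3. The RNA on each array was a pool from 3 experiments, so the spread between cultures was not measured. The stem cell RNAs shared 1 slide and the neuron RNAs another, so slide and cell state cannot be told apart, whereas hippocampus and olfactory bulb were always compared within a slide.

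Astrocytes clear glutamate from the synapse through Slc1a2 and Slc1a3, turn it into glutamine with glutamine synthetase and pass the glutamine back to neurons. They exchange ions and small metabolites with one another through gap junctions built of connexins such as Gja1 (Cx43) and Gjb6 (Cx30), and move water through Aqp4, which sits on the endfeet that touch blood vessels. Slc1a3, Fabp7 and, to a lesser degree, Glul are also made by radial glia and neural stem cells, Gja1 and Sparcl1 by fibroblasts and cells of the vessel wall, and S100b and Fabp7 by ensheathing glia of the olfactory system.

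Several neuronal markers were lower or not measured on the arrays labelled neurons, as described with the other marker lists, so "neurons" and "neuron arrays" stand here for the label alone. The 10 genes fell into sets with different behaviour between the stem cell arrays and the arrays labelled neurons. Slc1a2, Aqp4 and Gjb6 were not well above background on either stem cell array and were measured on both neuron arrays. Gja1 and Sparcl1 were near the detection limit in stem cells and far higher in neurons of both sources. With the main processing they were higher by at least 837-fold, a size that other background correction lowered, as given below. Slc1a3, Glul and Fabp7 were already clearly measured in stem cells and were higher in neurons. S100b and Ntsr2 were at like levels on 3 arrays and higher on the olfactory bulb neuron array. The upstream sequences of Sparcl1 and Gja1, which had large differences, and of Fabp7 and S100b, which had small ones, are shown because each has a single start in the reference. They are the 250 bases before the start, from RefSeq on the rat assembly GRCr8, written 5′ to 3′ on the gene's strand, with motif matches in capitals.
Gja1, chr20:36302314-36302563, plus strand: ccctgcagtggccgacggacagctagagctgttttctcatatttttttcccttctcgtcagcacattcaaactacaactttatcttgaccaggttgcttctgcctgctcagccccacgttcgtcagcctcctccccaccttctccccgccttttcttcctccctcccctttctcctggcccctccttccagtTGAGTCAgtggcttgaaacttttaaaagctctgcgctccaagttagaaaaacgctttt
Sparcl1, chr14:5937234-5937483, plus strand: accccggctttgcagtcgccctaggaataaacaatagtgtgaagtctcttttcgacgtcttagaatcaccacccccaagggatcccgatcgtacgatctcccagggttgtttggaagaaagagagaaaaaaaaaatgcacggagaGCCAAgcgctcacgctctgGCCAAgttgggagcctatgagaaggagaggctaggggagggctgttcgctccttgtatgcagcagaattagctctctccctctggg
Fabp7, chr20:37669356-37669605, plus strand: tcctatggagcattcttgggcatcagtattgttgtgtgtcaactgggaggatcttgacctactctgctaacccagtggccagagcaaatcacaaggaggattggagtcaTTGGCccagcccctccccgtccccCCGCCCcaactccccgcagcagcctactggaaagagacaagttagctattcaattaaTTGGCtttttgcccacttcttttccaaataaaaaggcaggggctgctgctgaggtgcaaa
S100b, chr20:12381082-12381331, minus strand: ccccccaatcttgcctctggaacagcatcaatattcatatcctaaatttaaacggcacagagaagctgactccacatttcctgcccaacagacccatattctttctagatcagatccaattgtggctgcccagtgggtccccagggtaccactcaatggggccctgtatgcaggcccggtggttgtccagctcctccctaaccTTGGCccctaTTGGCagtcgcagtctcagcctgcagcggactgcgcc
The motifs searched on both strands were TTCNNNGAA (the STAT site), TTGGC (the core of the NFI site), TGGGAA (the RBPJ core), GGGCGG (the GC box), TATAAA (the TATA box) and TGANTCA (the AP-1 site), and N stands for any base. STAT, NFI and RBPJ proteins are known regulators of glial genes. The Gja1 window held 1 match, an AP-1 site at 58 to 52 bases before the start. The Sparcl1 window held a pair of NFI cores, the nearer at 86 to 82 bases, and the S100b window held them at 47 to 43 and 37 to 33 bases. The Fabp7 window held NFI cores at 141 to 137 and 60 to 56 bases and a GC box at 117 to 112 bases. The TTGGC core was in 9 of the 16 windows of the 10 genes, of which 3 are overlapping windows of Slc1a3, and in 40.3% of all 33469 windows of this length. The AP-1 site was in 1 of the 16 windows, that of Gja1, against 6.34% of all windows, and the TATA box letters were in 0 of the 16, against 12.9%. STAT and RBPJ matches overlapped in the Ntsr2 window, at 54 to 46 bases. In these windows, genes with large and with small differences both held the NFI core.

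Levels below are log2 values of the processed signal minus the array's 75th percentile over all probes, in the order hippocampal stem cells, olfactory bulb stem cells, hippocampal neurons and olfactory bulb neurons. A level can be compared between arrays for 1 gene, and not between genes, because probes differ in how well they bind. A probe counts as measured when the scanner software marked it well above background. Where a gene was measured on 1 side of a comparison only, the difference is a bound, set against the detection limit, the dimmest signal on that array that was still marked well above background, and is given with "at least". A gene was called at 2-fold, a log2 difference of 1, or more. With 1 array per group no such difference has a replicate check. The scanner software's own error estimate was 0.14 log2 units for bright spots, and spots repeated on an array had a median SD between 0.057 and 0.082 log2 units. Both describe spots and not cultures.

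**Figure D1:**
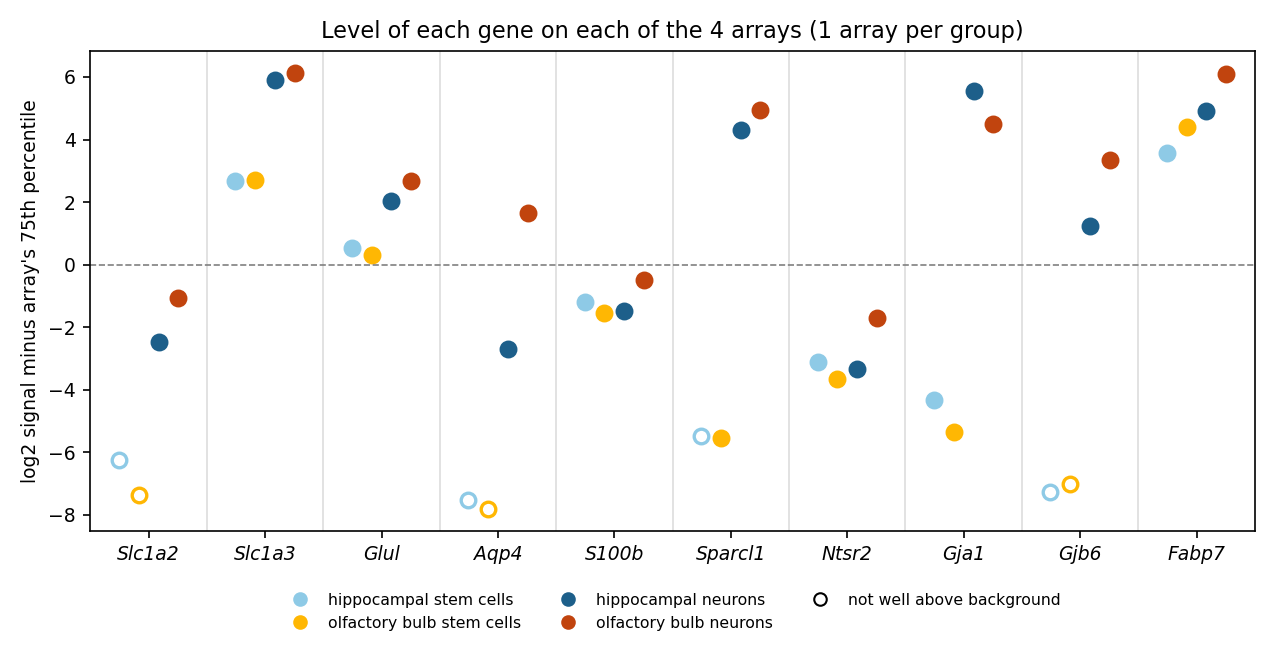
Level of each of the 10 genes on each of the 4 arrays, as log2 signal minus the array's 75th percentile, with 1 array per group. Open circles mark values not well above background: Slc1a2, Aqp4 and Gjb6 on both stem cell arrays and Sparcl1 on the hippocampal one.

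Of the 10 genes, 6 were measured in hippocampal stem cells, 7 in olfactory bulb stem cells and all 10 on each neuron array. In hippocampal cells 8 of 10 were higher in neurons by 2-fold or more and 0 were lower, where 21.8% of 6659 compared genes were higher and 26.9% lower. That count was 6 with normexp and with the dimmest probe of each gene, and 7 with median scaling and with the mean over probes. In olfactory bulb cells 10 of 10 were higher, where 26.9% of 7022 compared genes were higher and 20.0% lower, and 9 or 10 were higher under the alternatives. The median differences were 2.82 and 4.16, with bounds at their bound, beside -0.32 and 0.08 over all genes. Of the 10, 8 were higher in both sources, beside 18.5% of 6568 genes. The only fit with a residual degree of freedom was an additive limma model over the 4 arrays with state and source as terms, which takes both sources as the replicates of a state. It called 8 of 10 higher in neurons after Benjamini-Hochberg adjustment over 7113 genes, and 0 lower, where 19.5% of all genes were called higher and 12.1% lower. It took signals not well above background as they were, so for Slc1a2, Aqp4, Gjb6 and Sparcl1 its terms are not measured sizes. Its p-values rest on how unlike the changes of both sources were, with a variance drawn toward that of all genes, and not on a spread between cultures. Its calls hold any difference between the slides. In bulk RNA, fewer cells of a type and less RNA per cell cannot be told apart.

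**Figure D2:**
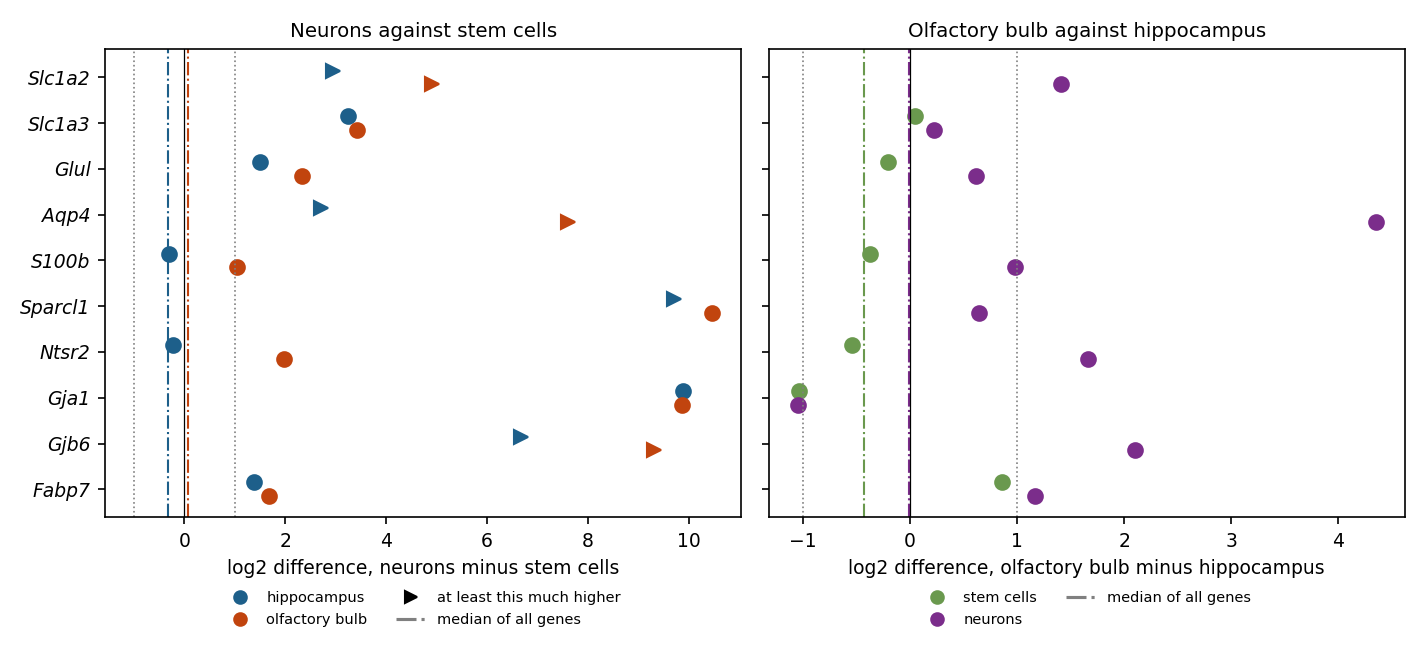
Log2 differences of the 10 genes, neurons minus stem cells for each source (left) and olfactory bulb minus hippocampus for each state (right), with 1 array on each side. Triangles are bounds, dotted lines mark 2-fold and dash-dotted lines the median of all genes. On the left, 8 genes lie past 2-fold in both sources, and on the right Gja1 is the 1 gene below 0 in neurons.

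Of the glutamate uptake genes, Slc1a3 (GLAST) had levels of 2.67, 2.72, 5.91 and 6.14. Both neuron arrays stood well above both stem cell arrays, and within a state the sources lay within 2-fold of each other. Slc1a3 was higher in neurons by 9.47-fold in hippocampal and by 10.7-fold in olfactory bulb cells (log2 3.24 and 3.42), and a second probe gave 3.36 and 3.48. The limma state term was 3.33 (SE 0.43, adjusted p = 0.00178). Slc1a2 (GLT-1), the main glutamate transporter of mature astrocytes, was not well above background in stem cells and had levels of -2.47 and -1.06 in neurons. It was higher by at least 7.67-fold and at least 30-fold in the 2 sources (log2 2.94 and 4.91; limma adjusted p = 0.00184). With normexp the hippocampal bound came to a log2 value of 0.92, under 2-fold. Its neuron signals were 9.29 and 40.8 times the detection limit. Glul had levels of 0.53, 0.32, 2.04 and 2.66. It was higher in neurons by 2.84-fold and 5.06-fold (limma state term 1.92, SE 0.45, adjusted p = 0.0203). Its dimmer probe gave log2 differences of 0.98 and 2.07, so the hippocampal call rests on the brighter probe.

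Other genes of glutamate handling were more often lower than higher in neurons. Of 16 listed genes, 14 had a named probe, and 2 were higher and 7 lower of 12 compared in hippocampal cells (median -1.32) and 2 higher and 5 lower of 13 in olfactory bulb cells (median -0.56). The limma fit called 2 of 13 higher and 4 lower. Slc1a1, the glutamate transporter of neurons, was lower in neurons, with differences of -2.87 and -4.36. Got1, an aspartate aminotransferase, differed by -1.57 and -2.30, and the glutamine transporters Slc38a1 and Slc38a2 by -1.63 and -2.20 and by -1.65 and -1.94. These 4 were the genes called lower. The genes called higher, named after their values were seen, were the neutral amino acid transporter Slc1a5 (1.04 and 2.62) and the glutamine transporter Slc38a5 (at least 0.96 and 5.11).

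Aqp4 was measured on the neuron arrays only, with levels of -2.71 in hippocampal and 1.64 in olfactory bulb neurons on its brightest probe. It was higher than in stem cells by at least 6.5-fold and at least 194-fold (limma adjusted p = 0.00267). The hippocampal 2-fold call ended with normexp (a bound of 0.84) and with the mean over probes (0.00), and the olfactory bulb call with the dimmest probe (0.58). Its 4 probes, which all carry the accession NM_012825, did not see it alike. All 4 were well above background on the olfactory bulb neuron array, with signals of 2254, 132, 27.8 and 17.4, and only the brightest on the hippocampal neuron array, with a signal of 123. The other probes gave no comparison in hippocampal cells and at least 3.51, 1.26 and 0.58 in olfactory bulb cells. Averaging the 4 probes took the limma state term of Aqp4 from 7.13 to 3.20 and its adjusted p to 0.0548. The fit used the stem cell signals as they were, although they were not well above background, so these terms are not measured sizes. With dim values set to the detection limit, an alternative chosen after seeing the data, the term was 5.15. The accession is the same for all of them, so what part of the transcript each binds is not given in the files.

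Among 12 other genes of water, potassium and ion transport, 8 had a named probe, and 4 of 7 were higher and 0 lower in hippocampal cells (median 2.13) and 6 of 8 higher and 1 lower in olfactory bulb cells (median 3.40). The limma fit called 4 of 8 higher and 0 lower. Aqp1, a water channel of choroid plexus and many peripheral tissues, was higher by 7.73 and 6.28, the bicarbonate transporter Slc4a4 by at least 5.80 and by 7.38, and the dystrophin gene Dmd, which anchors Aqp4 at the endfoot, by at least 3.01 and by 4.65. Atp1b2, a sodium pump subunit of astrocytes, was higher by 2.13 and 2.14. Kcnj10 (Kir4.1), the main potassium channel of astrocytes and named after its values were seen, was not measured in neurons and had levels of -6.36 and -5.17 in stem cells, of which the second was measured. It was the 1 gene of this list that was lower in olfactory bulb cells, by a bound of -1.24.

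Of the gap junction genes, Gja1 had a probe that was printed 10 times on each array. Its levels were -4.32 (SD over spots 0.321), -5.35 (0.232), 5.56 (0.060) and 4.51 (0.053). In stem cells the signals of 24.4 and 20.0 were 2.14 and 1.53 times the detection limit, and 8 of 10 spots passed in olfactory bulb stem cells. In neurons the signals were 37994 and 16493. Gja1 was higher in neurons by 939-fold and 928-fold (log2 9.88 and 9.86), and the limma state term was 9.87 (SE 0.42, adjusted p = 4.36e-05). With normexp the log2 differences of Gja1 came to 8.06 and 7.67, so the size of these folds depends on the background correction. Gjb6 was not well above background in stem cells and had levels of 1.25 and 3.35 in neurons. It was higher by at least 102-fold and at least 639-fold (log2 6.67 and 9.32; limma adjusted p = 7.94e-05). With normexp the bounds of Gjb6 came to log2 values of 4.13 and 6.63, so the stated minimum folds hold for the main processing only.

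Of 16 other connexin and pannexin genes, 12 had a named probe, and 4 of 9 compared were higher and 1 lower in hippocampal cells, with 6 of 9 higher and 1 lower in olfactory bulb cells. The medians were -0.06 and 1.33, and the hippocampal one turned positive with quantile normalization (0.15), spike-in scaling (0.31) and a 75th percentile over probes measured on all arrays (0.36). The limma fit called 4 of 9 higher and 1 lower. Gjb2 (Cx26), which is made by meningeal cells and some astrocytes, was higher by at least 8.79 and 10.56. Gja5 (Cx40), a connexin of arterial endothelium, was higher by at least 8.96 and 7.43, and Panx2 by 3.35 and 2.62. Gjb1 (Cx32), a connexin of oligodendrocytes and Schwann cells, was the gene called lower, with differences of -2.62 and -1.51. Gja4, named after its values were seen, was the other gene called higher (1.30 and 3.27).

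**Figure D3:**
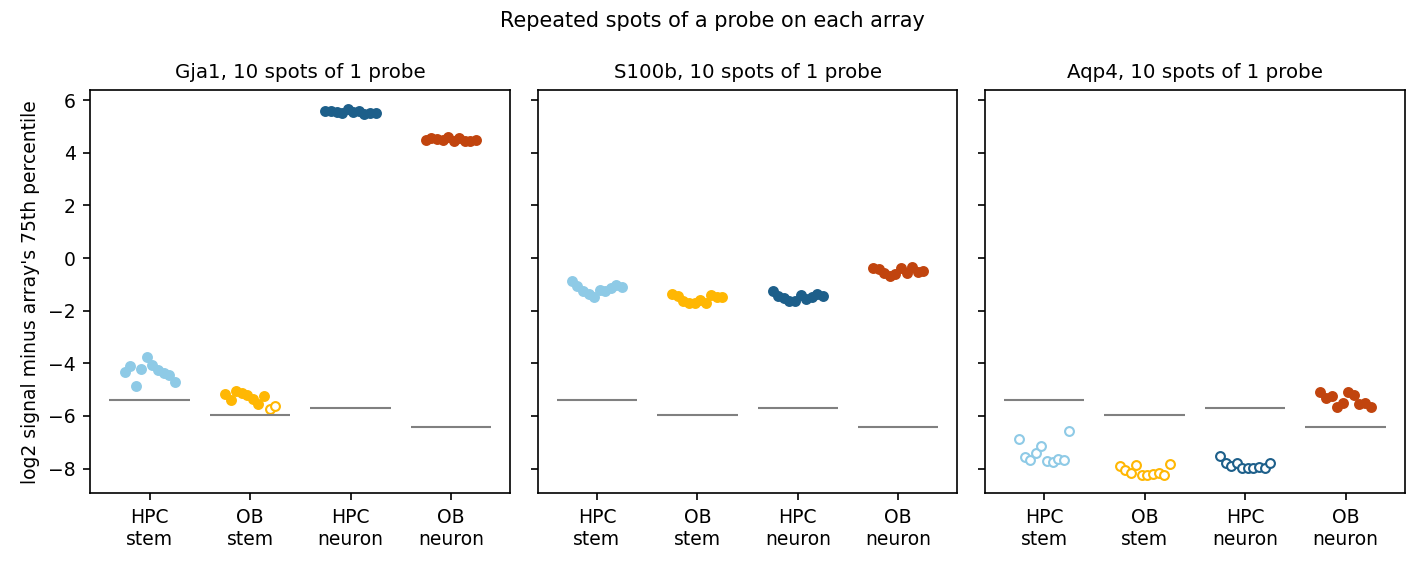
Levels of the 10 repeated spots of 1 probe of Gja1, S100b and Aqp4 on each array, as log2 signal minus the array's 75th percentile; open circles are spots not well above background and grey lines the lowest well above background probe of that array. HPC is hippocampus and OB olfactory bulb. Gja1 spots of stem cells and neurons lie in separate ranges, S100b spots are highest on the olfactory bulb neuron array, and this dim Aqp4 probe is measured on that array only.

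Sparcl1 (hevin), a matricellular protein that astrocytes secrete and that promotes synapse formation, had levels of -5.47 (not well above background), -5.54, 4.30 and 4.93. It was higher in neurons by at least 837-fold in hippocampal cells and by 1422-fold in olfactory bulb cells (limma state term 10.12, SE 0.45, adjusted p = 4.36e-05). In log2 units these were 9.71 and 10.47, and with normexp they came to 7.13 and 8.22. The olfactory bulb stem cell signal of 17.5 was 1.34 times the detection limit. Sparc, its close relative, was higher by 4.11 and 5.06, and Fstl1, a secreted protein of the same family, by 3.53 and 3.58. Of 10 genes of this family and of other matricellular proteins, 4 had a named probe. By 2-fold, 3 of 3 compared were higher in hippocampal cells, and 2 of 4 higher and 1 lower in olfactory bulb cells. The limma fit called 3 higher (Sparc, Fstl1 and Thbs1) and 0 lower. Thbs1 was not well above background in stem cells and had bounds of 1.93 and 0.24, so its limma term is not a measured size.

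S100b, a calcium-binding protein of astrocytes and of other glia, had levels of -1.18 (SD over 10 spots 0.175), -1.55 (0.137), -1.47 (0.118) and -0.49 (0.110). The olfactory bulb neuron array was the highest, and the other 3 lay within 2-fold of each other. S100b differed by -0.30 in hippocampal cells and was higher by 2.08-fold in olfactory bulb cells, and the limma state term was 0.38 (SE 0.50, adjusted p = 0.597). That 2-fold call came to log2 values of 0.91 with normexp, 0.95 with quantile normalization, 0.52 with median scaling and 0.50 with spike-in scaling. Several other S100 genes had larger differences, though not all in hippocampal cells. There S100a1, S100a3 and S100a10, named after their values were seen, differed by -0.46, -0.60 and -0.29. Of 12 other S100 genes, 8 had a named probe, and 3 of 6 were higher in hippocampal and 7 of 7 in olfactory bulb cells. None was called lower by 2-fold, and the limma fit called 4 of 7 higher. S100a6 (calcyclin) was higher by 8.0 and 9.69, S100a4 by 2.99 and 5.28 and S100g by at least 8.88 and 4.09.

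Ntsr2, a low-affinity neurotensin receptor found on astrocytes, had levels of -3.12, -3.66, -3.35 and -1.69. As for S100b, the olfactory bulb neuron array was the highest and the other 3 lay within 2-fold of each other. It differed by -0.23 in hippocampal cells and was higher by 3.94-fold in olfactory bulb cells, and the limma state term was 0.87 (SE 0.61, adjusted p = 0.309). The neurotensin gene Nts and the receptors Ntsr1, Sort1 and Sorl1 had no named probe.

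Fabp7 (BLBP), a brain lipid-binding protein of radial glia, had levels of 3.56, 4.41, 4.92 and 6.09. It was higher in neurons by 2.58-fold and 3.20-fold (limma state term 1.52, SE 0.43, adjusted p = 0.0374). With median scaling the hippocampal difference came to 0.91 and the limma adjusted p to 0.0824. Of the 6 other fatty acid binding proteins, 4 were compared. By 2-fold, 2 were higher and 2 lower in hippocampal cells, and 3 higher and 0 lower in olfactory bulb cells. The limma fit called 2 higher and 0 lower. Fabp1, named after its values were seen, went opposite ways in the sources, with bounds of -1.69 and 1.37. Fabp4, known from adipocytes, macrophages and endothelium, was higher by at least 9.38 and 12.13, and Fabp3 by at least 5.34 and 5.15, while Fabp5 differed by -1.11 and -0.17.

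Within a state, olfactory bulb and hippocampal cells were compared on the same slide. In stem cells 7 of the 10 genes could be set side by side, of which 0 were higher and 1 was lower in olfactory bulb cells, where 4.16% of 6029 genes were higher and 7.0% lower. That gene was Gja1, with a difference of -1.04, which came to -0.68 with normexp, -0.97 with quantile normalization, -0.18 with spike-in scaling and -0.87 with a 75th percentile over probes measured on all arrays. For Sparcl1 the bound gave no difference. In neurons 5 of 10 were higher in olfactory bulb cells, where 7.66% of 7000 genes were higher, and 1 was lower, where 8.0% were lower. The median was 1.07, beside -0.01 over all genes. Aqp4 was higher by 20.4-fold on its brightest probe, with a bound of 0.31 on the log2 scale on its dimmest, Gjb6 by 4.28-fold, Ntsr2 by 3.16-fold, Slc1a2 by 2.66-fold and Fabp7 by 2.24-fold. Gja1 went the other way and was lower by 2.07-fold, a difference of -1.05, which stayed past 2-fold under every alternative. Slc1a3, Glul and Sparcl1 differed by 0.22, 0.62 and 0.64, and S100b by 0.98, just under 2-fold. With 1 array on each side these differences were not tested. The connexins Gja1 and Gjb6 thus stood in opposite order in the neurons of the 2 sources.

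The change from stem cells to neurons could be compared between the sources for the 6 genes measured on all 4 arrays. The olfactory bulb change of Ntsr2 exceeded the hippocampal one by 2.21 log2 units, that of S100b by 1.35 and that of Glul by 0.83. The same difference was 0.31 for Fabp7, 0.18 for Slc1a3 and -0.02 for Gja1. For Slc1a2, Aqp4, Gjb6 and Sparcl1 at least 1 of the changes is a bound, so no difference of changes is given. These values were not tested.

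Other astrocyte markers were set beside the 10 genes. Of 13, 10 had a named probe, and 6 of 9 were higher and 1 lower in hippocampal and 7 of 10 higher and 3 lower in olfactory bulb cells; the limma fit called 6 higher and 1 lower. Gfap, the intermediate filament of astrocytes, named after its values were seen, was not well above background in stem cells and was higher in neurons by at least 3.70 and 4.97. Aldh1l1, a folate enzyme used as a general astrocyte marker, was higher by at least 5.16 and 5.91, the lipid carrier Apoe by 6.03 and 7.05 and Acsbg1 by 4.25 and 4.66. Aldoc, an aldolase of astrocytes, was the gene called lower, with differences of -1.71 and -2.24. The summed signal of the list, as a multiple of the array's 75th percentile, was 44.0, 37.4, 142 and 289, and that of the 10 genes was 20.2, 29.6, 165 and 213. Both sums were lowest on the stem cell arrays and highest on the olfactory bulb neuron array. Such sums follow the brightest probes. On the neuron arrays the sum of the 10 genes came mostly from Slc1a3, Gja1, Fabp7 and Sparcl1. Of these, Fabp7 had levels of 4.92 in hippocampal and 6.09 in olfactory bulb neurons, and Gja1 went the other way (5.56 and 4.51). Slc1a3 and Sparcl1 differed by less. Most of the sum of the list came from Aldoc on the stem cell arrays (levels of 5.13 and 4.64). On the neuron arrays most of it came from Apoe (6.61 and 7.84, against 0.58 and 0.79 in stem cells). The rise of that sum is therefore mainly that of Apoe.

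**Figure D4:**
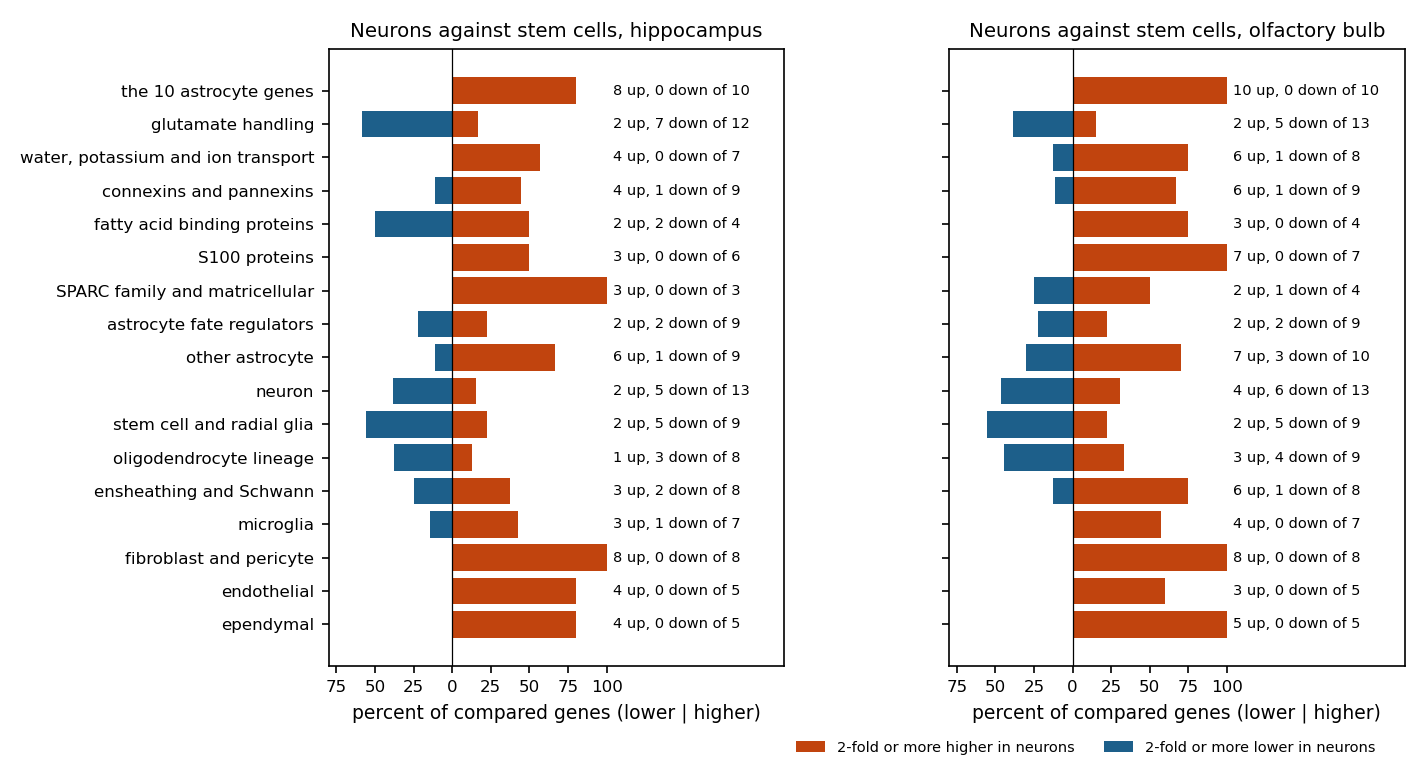
Share of the compared genes of each list that were 2-fold or more higher (right of 0) or lower (left of 0) on the neuron array than on the stem cell array of the same source, with the counts printed beside the bars. All 10 astrocyte genes are higher in olfactory bulb cells, as are all 8 fibroblast and pericyte markers in both sources.

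Markers of several other cell types, though not of all, were also higher on the neuron arrays. The fibroblast and pericyte list, 8 of 10 genes with a named probe, was higher for 8 of 8 in each source (medians 8.19 and 8.22), and their summed signal was 0.764, 0.480, 565 and 603 times the 75th percentile. Of these, Col3a1, Dcn, Lum, Pdgfrb and Rgs5 were not well above background on either stem cell array. Ependymal markers were higher for 4 of 5 and 5 of 5 genes, endothelial markers for 4 of 5 and 3 of 5, with Pecam1 not well above background on any array, and microglial markers for 3 of 7 (1 lower) and 4 of 7, with Cx3cr1 and Itgam not well above background on any array. Of the ensheathing and Schwann cell markers, 3 of 8 and 6 of 8 were higher and 2 and 1 lower in neurons, and 5 of 8 were higher in olfactory bulb than in hippocampal neurons, with Ngfr, named after its values were seen, at 4.95. Of the oligodendrocyte lineage markers, 1 of 8 was higher and 3 lower in hippocampal cells and 3 of 9 higher and 4 lower in olfactory bulb cells. Olig1 differed by -4.30 and -2.47 and Sox10 by -2.92 and -2.24, while Cspg4, which pericytes also make, was higher by 5.05 and 7.87. The neuron label was not borne out across the neuronal markers: 2 of 13 were higher and 5 lower in hippocampal cells and 4 of 13 higher and 6 lower in olfactory bulb cells. Mapt differed by -3.62 and -6.44 and Syt1 was not measured in neurons, while Snap25 (3.97 and 3.08) and Stmn2 (at least 5.83 and 5.01) were higher; Slc17a7 and Gad2 were not well above background on any array. The arrays are therefore named here as labelled, and the part of these other cells in the values of the 10 genes was not tested.

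Regulators of astrocyte fate did not share the direction of the 10 genes. Of 13, 9 had a named probe and all 9 were measured on every array, with 2 higher and 2 lower in each source and medians of -0.51 and -0.34. These counts were near the shares of all compared genes, 21.8% and 26.9% higher and 26.9% and 20.0% lower. The medians of all genes were -0.32 and 0.08. The limma fit called 1 higher, the cytokine receptor subunit Il6st (1.28 and 1.72), and 1 lower, the ciliary neurotrophic factor receptor Cntfr (-2.38 and -1.95). Id1 differed by -0.93 and -1.93 and Smad1 by -1.01 and -0.56. Stem cell and radial glia markers had 2 of 9 higher and 5 lower in each source. Nes, named after its values were seen, differed by -1.5 and -0.86, while Prom1 was higher by at least 6.92 and 6.93.

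Profiles over the 4 arrays were compared among 5495 genes measured on every array, by the Euclidean distance between log2 profiles centred on their mean. Over only 4 arrays, of which 2 share a state, many genes have a like profile. Gja1 lay nearest to the collagen-processing gene Pcolce (distance 0.85), Ppic (0.93) and Tpm2 (1.33), and Slc1a3 to the citrate transporter gene Slc13a5 (0.12), Fstl1 (0.24) and Fstl3 (0.26). Glul lay nearest to Cd59b (0.13), Dmac2l (0.15) and Serpina3n (0.16), and Fabp7 to the catalase gene Cat (0.07), Dlgap1 and Slc12a5 (0.20 each). S100b lay nearest to the Wnt receptor gene Fzd2 (0.04), Rhbdf1 (0.14) and Panx1 (0.16), and Ntsr2 to Plppr4 (0.14), Pxmp2 (0.19) and Aco1 (0.22).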

How the data were processed

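Intensity values, the fluorescence of each spot, were deposited by the authors as Agilent Feature Extraction 10.5.1.1 output, per the submitters' processing notes and the headers of the files. The processed signal is background-subtracted and detrended within an array, with no normalization between arrays. The deposited table of the whole series held the same values as the scanner files (largest difference 0). Scanner flags (0 or 1) marked spots well above background. No spot was saturated.

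Of 41012 non-control probes, 254 whose spots were flagged as outliers were left out. Spots of a probe were averaged on the log2 scale and the array's 75th percentile was subtracted. The files hold no gene names, so accessions were matched, without versions, to RefSeq genes of GRCr8. The probes were designed on rn4, so GRCr8 gave names alone. Of 40758 probes, 10783 matched 1 symbol, 0 several and 29975 none. A gene was represented by its brightest probe on average. The arrays had 60.2% to 74.0% of probes well above background.

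State was fitted with limma 3.58.1 in R 4.3.3 over genes measured on at least 1 array, with 1 residual degree of freedom. It was tested on simulated data with 7113 genes, where it recovered 32% of log2 changes of 2 and 98% of changes of 4, with 10 false calls. The simulated data held no source or slide difference and changed 50 genes per size, far fewer than were called here. These rates therefore may not hold for the real arrays. The 10 genes, the 8 pathway and 9 marker lists and the tests were chosen with earlier results of these data known. Named list genes are the 4 with the largest smaller-of-2 state difference, with 2 for the comparison of sources, unless stated; not all of them are reported here. Cell type markers at background are named besides. The alternatives were normexp (offset 50, on median spot signals, since the files hold no mean), quantile normalization, median and spike-in scaling, a 75th percentile over probes measured on all arrays, no bounds, other probe rules and the deposited table.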

Additional observations from a re-analysis of the deposited data

Results flagged for a closer look

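S100b and Ntsr2 had differences of opposite sign between neurons and stem cells of the 2 sources. The hippocampal differences were under 2-fold and near the hippocampal median of all genes (-0.32), so they show no clear change there. The olfactory bulb change of S100b exceeded the hippocampal change by 1.35 log2 units (1.05 against -0.30), and that of Ntsr2 by 2.21 (1.98 against -0.23). With 1 array per group the difference between the sources was not tested. The hippocampal values turned positive with spike-in scaling (0.08 for S100b and 0.14 for Ntsr2) and with a 75th percentile over probes measured on all arrays (0.13 and 0.19).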

How the results depend on the processing

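Over 9 alternatives, 332 differences of the 10 genes were recomputed, 0 called ones changed sign and 312 kept their side of 2-fold. Many of these could not move, so 312 overstates how well the calls held. The deposited table could change none, since it holds the same signals. The other probe rules could change only Slc1a3, Glul and Aqp4, which have several probes, and leaving out bounds only the bounds. The number higher in neurons ranged from 6 to 8 in hippocampal and from 9 to 10 in olfactory bulb cells. In stem cells, the number of genes lower in olfactory bulb cells went from 1 to 0 with normexp, quantile normalization, spike-in scaling and the 75th percentile over probes measured on all arrays, and to 2 without bounds. The number higher went from 0 to 1, which is Fabp7, with quantile normalization, spike-in scaling and that percentile. The number of genes measured on all arrays whose 2 state changes differed by 2 log2 units or more went from 1 to 0 with normexp and spike-in scaling and to 3 without bounds, which lets dim values count. The limma state term of S100b turned to -0.12 with median scaling (adjusted p = 0.843), and Glul came to an adjusted p of 0.0506 there. Setting dim values to the detection limit, an alternative chosen after seeing the data, left 8 genes called higher. Adjusted p-values for Gja1 ranged from 3.66e-64 with normexp to 0.00957 with quantile normalization, so their size carries little. Other scalings moved the median of all genes by up to 0.86 (spike-ins, olfactory bulb against hippocampal stem cells). Between states, the share of called genes that were higher was 44.8% (hippocampal) and 57.4% (olfactory bulb). It became 28.8% and 37.0% with median scaling, 63.5% and 36.4% with spike-in scaling and 65.9% and 69.6% with the percentile over measured probes. Between the stem cells they made up 37.3%, against 94.0% with spike-in scaling and 55.7% with that percentile. No paired analysis was possible because each group has 1 array, so there are no replicate numbers to block on; the limma fit pairs the states by source through its source term. Signals near background, such as those of Gja1 and Sparcl1 in stem cells, limit the precision of the largest folds.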

Other observations

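Gja1 and Fabp7 both lie on rat chromosome 20 in the reference, with 3 protein-coding genes between them, Hsf2, Serinc1 and Pkib, which were looked up after the values of the 10 genes were seen. Pkib, a protein kinase A inhibitor gene, was higher in neurons by 4.69 in hippocampal and 1.01 in olfactory bulb cells, and differed by -2.89 between olfactory bulb and hippocampal neurons. Serinc1 differed by 1.15 and 0.25 between neurons and stem cells, and the heat shock factor gene Hsf2 by -0.27 and -1.36. Neighbouring genes thus did not share 1 pattern over the 4 arrays.

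Upstream windows of the 10 genes had a GC content between 44.8% and 71.2% with a median of 51.6%, beside a median of 51.2% over all 33469 windows.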
